A study of Homo sapiens with 6 samples.

Results

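The genes described here encode enzymes that write or erase methyl and acetyl groups on histones. They were chosen by name: KDM1 to KDM8, KMT2 and KMT5, HDAC, SIRT1 to SIRT7, PRMT, KAT, EZH1, EZH2 and SETD symbols with a digit. On the arrays 74 probe sets carried exactly 1 such symbol, and after keeping the brightest probe set of each gene there were 70 members among 18417 genes tested. The rule used names and the mean over all arrays, not the difference between groups, but it was set with earlier results of these data known.

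RNA came from A375, an established human melanoma cell line that carries the BRAF V600E mutation, which keeps the MEK and ERK kinases switched on. The 3 vemurafenib arrays came from cells given 10 μM vemurafenib, an inhibitor of mutant BRAF, for 24 h. The 3 vehicle arrays came from cells given 0.1% DMSO for 24 h. Each group's replicates were grown from separate stocks on separate days, all are of 1 cell line, and the cells of both groups carry the same BRAF mutation.

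Histone tails are marked at particular lysines and arginines. Methylation of H3K4 is found at active promoters and enhancers, methylation of H3K27 by Polycomb repressive complex 2 at silenced genes, and methylation of H4K20 is tied to the cell cycle and to compact chromatin. Acetyltransferases add acetyl groups that accompany transcription, and the zinc-dependent HDACs and the NAD-dependent sirtuins remove them. Many of these enzymes also act on proteins other than histones.

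Levels are log2 values as deposited, and a change is the vemurafenib mean less the vehicle mean in those units. A gene passed at a limma adjusted p under 0.05, adjusted with Benjamini-Hochberg over all 18417 genes. The median of an array ran from 7.69 to 7.73; there is no read count behind a level, and having 3 arrays a group limits the precision. The levels are those of whole dishes, so fewer cells with an RNA and less of it per cell cannot be told apart. Of 7 pigment cell markers, MITF, SOX10, S100B and GPNMB lay between 10.17 and 13.1 in group means, while MLANA, PMEL and TYR lay at or below 6.72, within the dimmest 25% of genes (up to 6.87). MITF, SOX10, S100B and GPNMB were higher with vemurafenib, by 0.75, 0.30, 0.91 and 1.36, and the other 3 did not pass. All 10 proliferation markers were lower with vemurafenib, and their summed level, as log2, ran from 13.31 to 13.50 on vemurafenib arrays and from 14.65 to 14.79 on vehicle arrays. Among 5 fibroblast markers DCN, LUM and PDGFRB were higher and the collagen genes COL1A1 and COL1A2 did not pass (summed level 10.88 to 11.08 on vemurafenib arrays, 10.13 to 10.33 on vehicle arrays). Of 5 keratinocyte markers 0 passed in limma (1 at an unadjusted p under 0.05, KRT14, adjusted p 0.0501), of 4 endothelial markers 1 fell and of 4 leukocyte markers 2 fell. No marker can read 0 on this scale. The 4 endothelial markers lay within that dimmest 25% in both groups, and so did CD14, CD3E, PTPRC, CDH1 and KRT1. DCN did so with vehicle (5.46). Signal near background limits these values. All arrays are of that 1 cell line, so the brighter fibroblast, keratinocyte and leukocyte markers are read here as RNA of its cells. Proliferation itself was not measured, and what part the lower proliferation markers had in the members' values was not tested.

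With vemurafenib 27 enzyme genes rose and 13 fell, and 30 did not pass. The share called was 57.1%, against 45.5% of all genes tested. Higher calls made up 27 of 70 members where 23.2% of all genes were called higher, and lower calls 13 of 70 where the background was 22.2%. The median change was 0.10 for the members and -0.05 for all genes, and the median size of change without regard to sign was 0.28 and 0.20. With a change of at least 1.5-fold 12 of 70 members passed, near the 15.7% of all genes. With at least 2-fold 2 of 70 members passed, against 1048 of 18417 genes. The groups of arrays did not overlap for 46 members (31 above, 15 below), where this holds for 55.4% of all genes. Centring each array on the median of the genes tested turned the members' calls into 24 higher and 17 lower. This centring moved the median change of all genes further from 0, from -0.05 to -0.11, so it did not remove a shift between the groups. Over all genes it gave 3682 higher and 5630 lower, against 4281 and 4090 with the values as deposited. In 3 members a group mean lay within the dimmest 25% of genes: PRMT8, SIRT4 and the Y-linked KDM5D, which did not pass and whose values are not given.

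**Figure D1:**
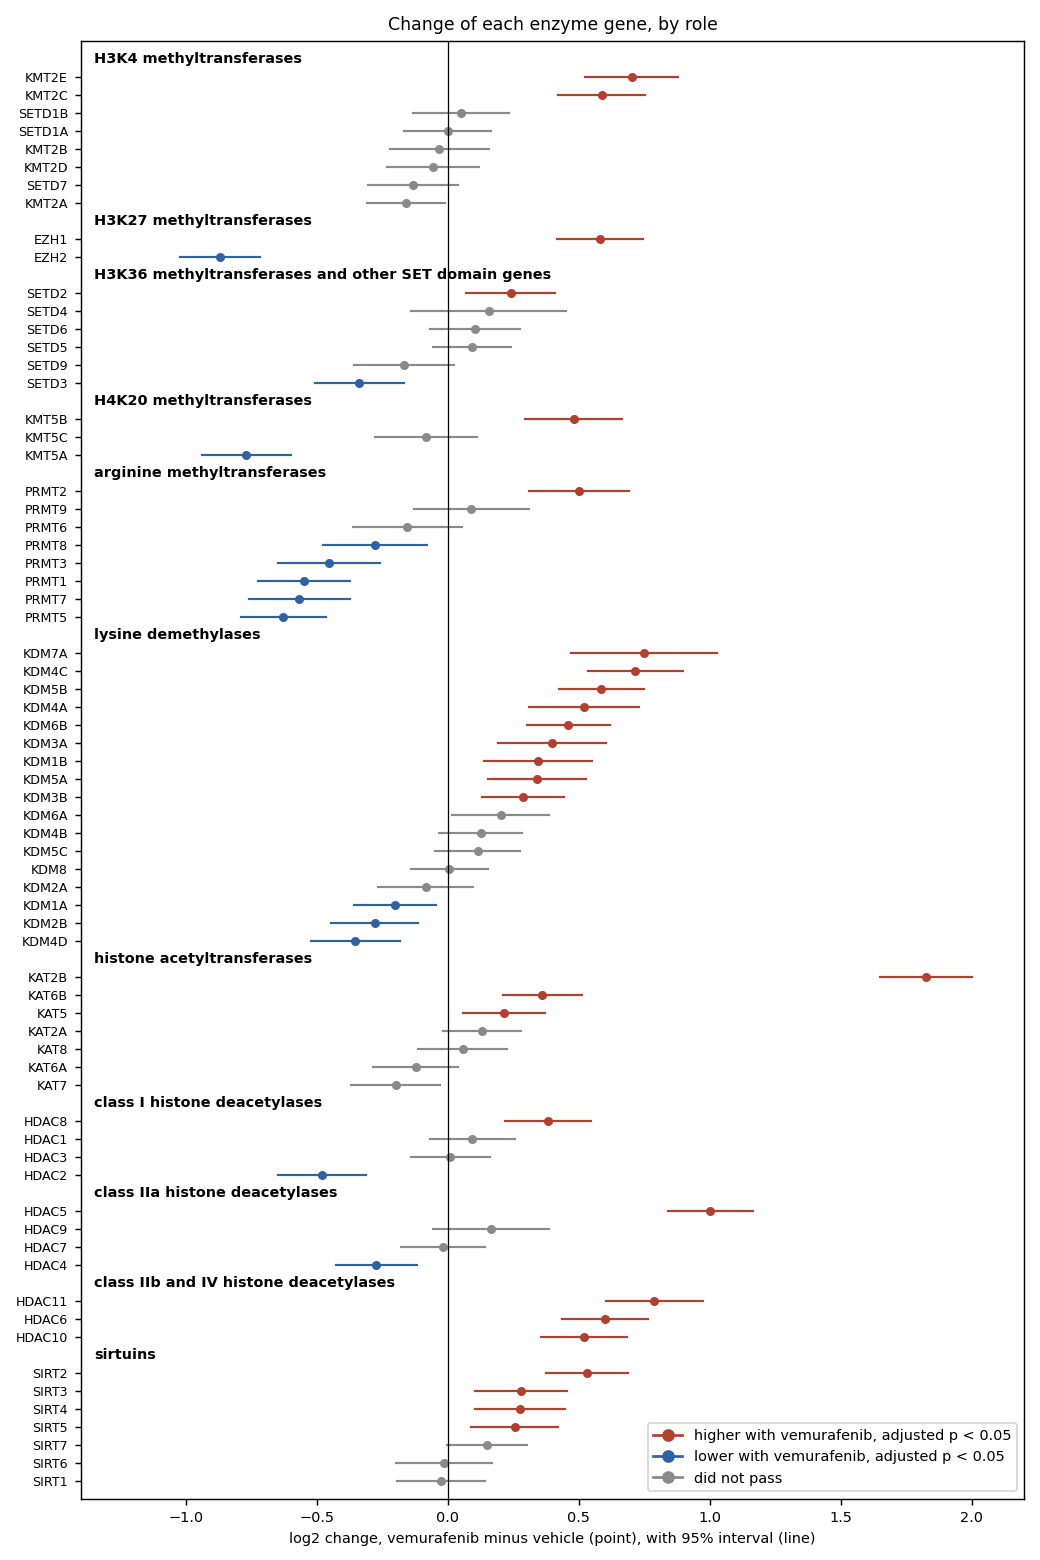
Log2 change of 69 enzyme genes (points) with the 95% interval from limma (lines), grouped by role on the vertical axis, with KDM5D left out. Red genes passed higher with vemurafenib and blue ones lower, and KAT2B at 1.82 and EZH2 at -0.87 mark the ends.

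The enzymes of H3K27 methylation changed in opposite directions. EZH2, the main catalytic subunit of Polycomb repressive complex 2 in dividing cells (probe set 8143663), stood at 10.63, 10.54 and 10.64 on the vemurafenib arrays and at 11.51, 11.45 and 11.46 on the vehicle arrays. All vemurafenib values lay below all vehicle values, with a gap of 0.81 between the groups. Its mean was 10.61 ± 0.06 with vemurafenib and 11.47 ± 0.03 with vehicle (SD, n = 3 each), a change of -0.87 (SE 0.07, limma adjusted p 1.44e-06). EZH1, its paralogue, which is also found in cells that no longer divide (probe set 8015685), stood at 10.18, 10.31 and 10.14 with vemurafenib and at 9.62, 9.58 and 9.69 with vehicle. It rose by 0.58 (SE 0.08, limma adjusted p 6.68e-05), and its groups did not overlap.

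Partners of these enzymes were read from a list of 10 genes, of which 6 fell and 0 rose in limma (0 also at an unadjusted p under 0.05). Of all genes 22.2% were called lower and 23.2% higher. PHF19, which guides the complex to chromatin, changed by -1.11, MTF2, a relative with the same role, by -0.63, and the core subunits EED and SUZ12 by -0.48 and -0.41. The other two that fell did so by less than SUZ12. The median of the list was -0.26, and the proliferation markers above fell with it; their part was not tested.

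The promoters of the 2 largest falls and the 2 largest rises with an entry in the RefSeq table are shown because these genes mark the ends of the change. Each runs from 250 bases before to 50 bases after the first listed start on GRCh38.p14, 5′ to 3′ on the gene's strand. EZH2 and KMT5A have 2 listed starts each, of which only the first is shown. The windows are chr7:148884242-148884541 (minus strand) for EZH2, chr12:123383882-123384181 (plus) for KMT5A, chr3:20040196-20040495 (plus) for KAT2B and chr3:13480056-13480355 (plus) for HDAC11. Capitals mark matches to the motifs named after the sequences.
EZH2: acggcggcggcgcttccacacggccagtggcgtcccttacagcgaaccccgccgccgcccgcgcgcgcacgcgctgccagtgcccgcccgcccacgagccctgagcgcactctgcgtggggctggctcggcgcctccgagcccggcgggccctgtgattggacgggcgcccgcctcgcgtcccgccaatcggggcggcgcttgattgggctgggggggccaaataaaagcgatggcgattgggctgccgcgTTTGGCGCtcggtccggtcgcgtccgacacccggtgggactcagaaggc
KMT5A: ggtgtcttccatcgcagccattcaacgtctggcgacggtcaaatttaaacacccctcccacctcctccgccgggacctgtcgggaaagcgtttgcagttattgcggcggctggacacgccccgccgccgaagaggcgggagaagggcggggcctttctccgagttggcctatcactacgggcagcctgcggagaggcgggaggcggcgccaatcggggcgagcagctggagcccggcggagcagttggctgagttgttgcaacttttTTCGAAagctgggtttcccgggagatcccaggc
KAT2B: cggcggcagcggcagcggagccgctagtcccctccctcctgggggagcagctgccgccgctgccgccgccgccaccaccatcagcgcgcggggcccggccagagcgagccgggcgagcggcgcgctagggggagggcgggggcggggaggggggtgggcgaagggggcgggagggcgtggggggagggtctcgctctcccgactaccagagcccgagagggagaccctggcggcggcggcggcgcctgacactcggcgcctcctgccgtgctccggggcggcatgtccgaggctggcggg
HDAC11: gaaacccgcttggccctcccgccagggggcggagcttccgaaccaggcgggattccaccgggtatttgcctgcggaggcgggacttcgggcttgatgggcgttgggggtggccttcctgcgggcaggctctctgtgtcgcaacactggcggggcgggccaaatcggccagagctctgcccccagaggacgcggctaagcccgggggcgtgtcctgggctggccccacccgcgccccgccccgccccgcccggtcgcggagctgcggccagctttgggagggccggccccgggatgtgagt

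Motifs were searched on both strands in the 95 promoter windows that 65 of the 70 members had in that table; HDAC5, KAT6A, KAT8, SETD1B and SIRT7 had none there. For E2F factors, which switch on genes of DNA replication, the letters were TTTCCCGC, TTTCGCGC, TTTGCCGC and TTTGGCGC. They matched 2 of 24 windows of members that fell (EZH2 and PRMT7), 2 of 36 of members that rose (EZH1 and KDM1B), 1 of 35 of the rest and 3.31% of all 35116 windows. The CHR element of late cell cycle genes (TTTGAA or TTCGAA) was present in 5 of 24 windows of members that fell, among them KMT5A, in 1 of 36 of members that rose, in 2 of 35 of the rest and in 16.4% of all windows. ETS letters (CCGGAAGT) occurred in 0 of 24, 3 of 36 (KAT5, KDM5A and SIRT3) and 2 of 35 windows in the same order, against 4.14% of all. The E-box CACGTG occurred in 2 of 24, 2 of 36 and 5 of 35 windows, against 7.26%, and the FOXO letters GTAAACA in 1 of 24, 1 of 36 and 0 of 35, against 3.42%. In the printed windows, EZH2 holds TTTGGCGC from base 252 and KMT5A TTCGAA from base 268, while KAT2B and HDAC11 hold none of these letters. The window of the other EZH2 start, not printed, holds no E2F letters. These matches are a description, since the arrays measured RNA and no factor's binding.

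Among the H4K20 methyltransferases, KMT5A, which sets the first methyl group and whose protein follows the cell cycle, fell. On probe set 8053733 it read 11.75, 11.55 and 11.54 with vemurafenib and 12.36, 12.38 and 12.40 with vehicle. The groups lay apart by 0.61, and the change was -0.77 (SE 0.08, limma adjusted p 9.25e-06). The platform table assigned 3 probe sets to this symbol: a second one (7959574) changed by -0.72 and the third and dimmest (7972973) by -0.27, with adjusted p values of 1.67e-05 and 0.146 when every probe set was tested in limma. Whether the probe sets of this gene also measure near-identical copies was not tested. KMT5B, which adds further methyl groups, went the other way, at 9.48, 9.47 and 9.33 with vemurafenib and 9.01, 8.81 and 9.03 with vehicle, a rise of 0.48 (SE 0.08, limma adjusted p 0.000618). KMT5C, with the same activity, averaged 8.78 ± 0.16 with vemurafenib and 8.86 ± 0.04 with vehicle (SD, n = 3 each), and its interval ran from -0.28 to 0.11.

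**Figure D2:**
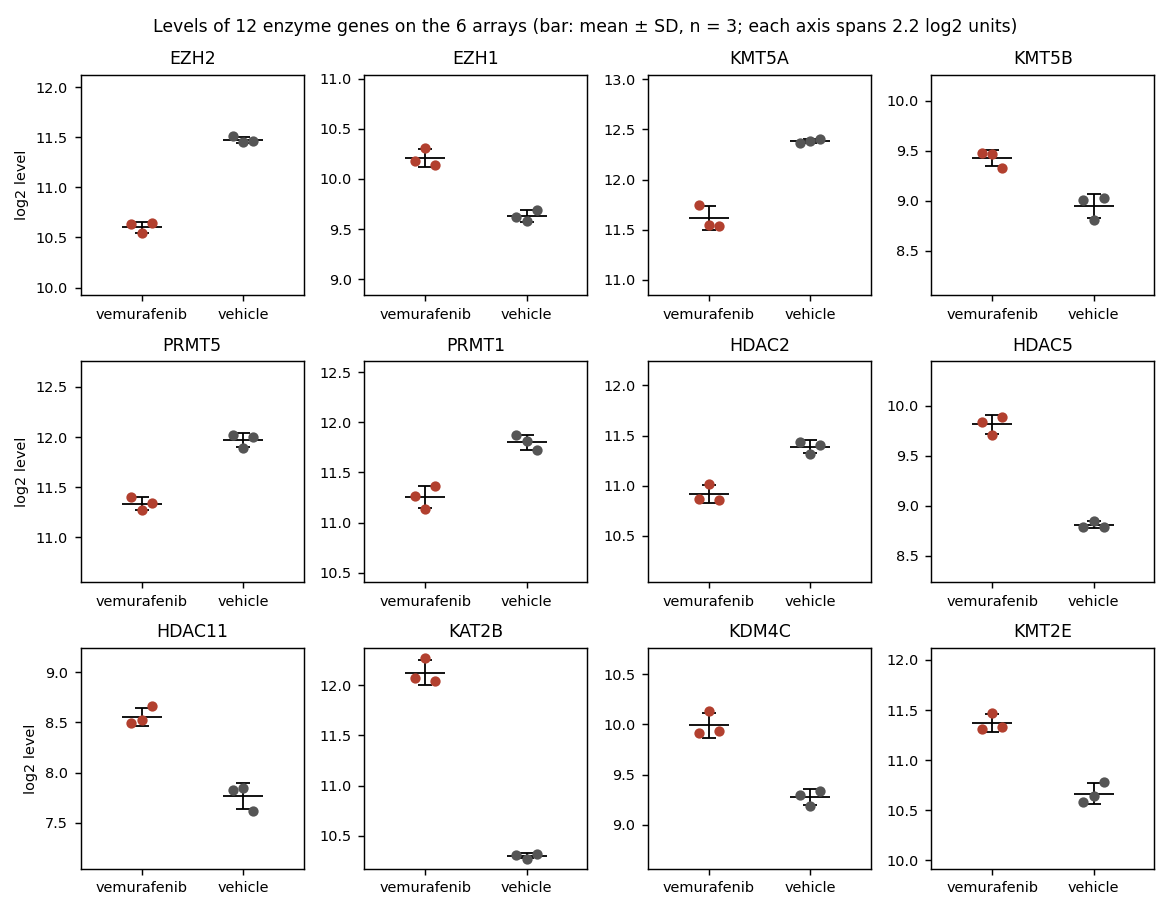
Log2 level of 12 enzyme genes on each of the 3 vemurafenib arrays (red points, left) and 3 vehicle arrays (grey points, right), with the mean and SD as bars; each vertical axis spans 2.2 log2 units and does not start at 0. The 12 were picked for display from members that passed in limma. In each panel the points of the groups do not overlap, which holds for 46 of 70 members and for 55.4% of all genes.

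Of 8 genes placed with H3K4 methylation 2 rose and 0 fell in limma (1 was lower at an unadjusted p under 0.05, KMT2A). Of all genes 45.5% were called. KMT2C, which methylates H3K4 at enhancers, had 11.35, 11.47 and 11.41 on vemurafenib arrays and 10.75, 10.80 and 10.92 on vehicle arrays, a rise of 0.59 (SE 0.08, limma adjusted p 6.24e-05). KMT2E, which is grouped here by name and is known as a reader of methylated H3K4, had 11.31, 11.47 and 11.33 with vemurafenib and 10.58, 10.64 and 10.78 with vehicle. It rose by 0.70 (SE 0.08, limma adjusted p 2.84e-05), and both genes' groups were apart by at least 0.43. KMT2D, the close relative of KMT2C, was at 9.91 ± 0.12 with vemurafenib and 9.97 ± 0.04 with vehicle (SD, n = 3 each), with an interval of -0.23 to 0.12. The changes of KMT2B, SETD1A and SETD1B, which set H3K4 methylation at promoters, lay between -0.03 and 0.05, and that of SETD7 was -0.13 (limma adjusted p 0.194, 0.0489 without vehicle replicate 2). KMT2A changed by -0.16 (limma adjusted p 0.0765) with groups that did not overlap, and it passed in 4 of 16 alternatives at the same threshold, among them centring of the arrays.

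Of 12 subunits and partners of these H3K4 complexes 7 fell and 0 rose in limma (0 also at an unadjusted p under 0.05), against 22.2% of all genes called lower and 23.2% called higher. WDR5, the scaffold that holds the catalytic core, changed by -0.69 and PAXIP1, a subunit of the KMT2C and KMT2D complexes, by -0.61. HCFC1 and WDR82 followed at -0.39 and -0.26. The median of the list was -0.20, against -0.05 for all genes.

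There were 6 genes placed with H3K36 methylation and other SET domain proteins. SETD2, the enzyme of H3K36 trimethylation, read 10.97, 11.06 and 11.09 with vemurafenib and 10.76, 10.73 and 10.91 with vehicle. Its rise of 0.24 (SE 0.08, limma adjusted p 0.0240) did not pass without vehicle replicate 1 (0.0852), vehicle replicate 2 (0.0656), vemurafenib replicate 2 (0.0648) or vemurafenib replicate 3 (0.0614), nor after centring (0.0728). SETD3, known as a histidine methyltransferase of actin, read 9.76, 9.84 and 9.63 with vemurafenib and 10.06, 10.03 and 10.14 with vehicle, and fell by 0.34 on the log2 scale (SE 0.08, limma adjusted p 0.00403). SETD4, SETD5, SETD6 and SETD9 did not pass, at changes of 0.16, 0.09, 0.10 and -0.17; without vemurafenib replicate 3 SETD4 passed (0.0249), and without vehicle replicate 2 SETD9 did (0.0236). For SETD4 the SD was 0.29 with vemurafenib, the widest of any member in either group.

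Arginine methyltransferases made up the group with the most falls: 5 of 8 fell and 1 rose, with a median change of -0.37, where 22.2% of all genes were called lower and 23.2% higher. PRMT5, which places symmetric dimethylarginine on histones and on splicing proteins, stood at 11.40, 11.27 and 11.34 with vemurafenib and between 11.89 and 12.02 on the 3 vehicle arrays. The gap between the groups was 0.48, and the change was -0.63 (SE 0.07, limma adjusted p 3.13e-05). PRMT1, the main source of asymmetric dimethylarginine, stood at 11.26, 11.14 and 11.36 with vemurafenib and at 11.87, 11.81 and 11.72 with vehicle, a change of -0.55 (SE 0.08, limma adjusted p 0.000172). PRMT7, which makes monomethylarginine, changed by -0.57 (SE 0.09) and PRMT3, which acts on a ribosomal protein, by -0.45 (SE 0.09). Both had groups that did not overlap, with limma adjusted p values of 0.000255 and 0.00130. PRMT8, a brain enzyme, was dim in both groups (6.44 ± 0.09 with vemurafenib, 6.71 ± 0.16 with vehicle, SD, n = 3 each). Its change of -0.28 (limma adjusted p 0.0262) did not pass without vehicle replicate 2 (0.0804), vemurafenib replicate 2 (0.0730) or vemurafenib replicate 3 (0.0713), nor with array weights (0.0660). PRMT2 was the riser, at 9.27, 9.11 and 9.31 with vemurafenib and 8.84, 8.60 and 8.75 with vehicle, or 0.50 (SE 0.09, limma adjusted p 0.000604). PRMT6 and PRMT9 did not pass, at -0.15 and 0.09.

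The partner of PRMT5 in its active complex, WDR77, changed by -0.86 (limma adjusted p 4.44e-06), and RIOK1 and COPRS, which bind the complex and steer it to substrates, by -0.68 and -0.28. BTG1, which binds PRMT1 and restrains growth, rose by 0.76. Of these 5 partners measured, 3 fell and 1 rose, against 22.2% and 23.2% of all genes. CARM1, an arginine methyltransferase that the name rule did not take in, changed by -0.31 (limma adjusted p 0.00463). The proliferation markers given above were lower on the same arrays, and their part in these falls was not tested.

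Of 18 lysine demethylases 9 rose and 3 fell, with a median change of 0.25, where 23.2% of all genes were called higher and 22.2% lower. KDM7A, which removes methyl groups from H3K9 and H3K27, had the largest change, from values of 8.16, 8.49 and 8.16 with vemurafenib and 7.69, 7.24 and 7.64 with vehicle. It rose by 0.75 (SE 0.13, limma adjusted p 0.000512), and its vehicle SD of 0.25 was the widest among the members, with vehicle replicate 2 the lowest array. KDM4C, a demethylase of H3K9 and H3K36, read 9.91, 10.13 and 9.93 with vemurafenib and 9.30, 9.19 and 9.34 with vehicle, a rise of 0.71 (SE 0.08, limma adjusted p 2.72e-05). KDM4A, with the same substrates, rose by 0.52 (SE 0.10), while KDM4B did not pass (0.13, limma adjusted p 0.178) and KDM4D fell by 0.35 on the log2 scale (SE 0.08, limma adjusted p 0.00305).

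Among the H3K4 demethylases, KDM5B, which in melanoma has been described as marking slowly cycling cells, read 11.38, 11.41 and 11.29 with vemurafenib and 10.74, 10.72 and 10.85 with vehicle. The groups were 0.43 apart, and the gene rose by 0.59 (SE 0.07, limma adjusted p 5.21e-05). KDM5A rose by 0.34 (SE 0.09, limma adjusted p 0.00636), and KDM5C did not pass at 0.11. KDM1B rose by 0.34 (SE 0.09, limma adjusted p 0.0104). KDM1A, the LSD1 enzyme of corepressor complexes, stood at 11.13 ± 0.02 with vemurafenib and 11.33 ± 0.07 with vehicle (SD, n = 3 each) and passed as lower (-0.20, limma adjusted p 0.0383). That call did not hold without vehicle replicate 1 (0.141), vehicle replicate 3 (0.111), vemurafenib replicate 1 (0.0925), vemurafenib replicate 2 (0.0652) or vemurafenib replicate 3 (0.0787), nor after renewed quantile normalization (0.0798).

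KDM6B, which removes methyl groups from H3K27, read 9.67, 9.57 and 9.70 with vemurafenib and 9.13, 9.24 and 9.18 with vehicle, a rise of 0.46 (SE 0.07, limma adjusted p 0.000276). Its X-linked relative KDM6A, at 0.20, did not pass (limma adjusted p 0.0728), and its groups overlapped. It passed as higher in 5 of 16 alternatives, with adjusted p values of 0.0324 after renewed quantile normalization, 0.0399 without the dimmest 50% of genes, 0.0433 with an intensity trend, 0.0148 with array weights and 0.0127 without vemurafenib replicate 3. The H3K9 demethylases KDM3A and KDM3B rose by 0.40 and 0.29, with limma adjusted p values of 0.00474 and 0.00633. KDM2B, an H3K36 demethylase of a Polycomb complex, changed by -0.28 (SE 0.08, limma adjusted p 0.00994), and its paralogue KDM2A did not pass at -0.08. KDM8 showed 0.01 on the probe set used and 0.37 on its second, dimmer one (7.11 ± 0.10 with vemurafenib, 6.74 ± 0.13 with vehicle, SD, n = 3 each), which passed when every probe set was tested in limma (adjusted p 0.00497). For this gene the probe sets disagree. Of 7 further demethylases outside the name rule, JMJD6 fell (-0.65) and 0 rose in limma (1 at an unadjusted p under 0.05), and the share called was 14.3%, against 45.5% of all genes.

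Of 7 histone acetyltransferases 3 rose and 0 fell in limma (1 was lower at an unadjusted p under 0.05, KAT7), and KAT2B had the largest change of all 70 members. The share called, 42.9%, lay near the 45.5% of all genes. KAT2B, also called PCAF, a coactivator that acetylates H3K9 (probe set 8078227), stood at 12.07, 12.27 and 12.04 with vemurafenib and at 10.31, 10.27 and 10.32 with vehicle. Every vemurafenib array exceeded every vehicle array by at least 1.72. The change was 1.82 (SE 0.08, limma adjusted p 1.59e-08), or 3.54-fold. Its paralogue KAT2A, the GCN5 subunit of the SAGA complex, was at 10.62, 10.59 and 10.54 with vemurafenib and 10.44, 10.44 and 10.48 with vehicle, and its change of 0.13 did not pass (limma adjusted p 0.134). KAT6B, an H3K23 acetyltransferase of the MYST family, read 10.12, 10.13 and 10.08 with vemurafenib and 9.75, 9.71 and 9.79 with vehicle, a rise of 0.36 (SE 0.07, limma adjusted p 0.00105). KAT5, the TIP60 enzyme of the NuA4 complex, rose by 0.21 (SE 0.07, limma adjusted p 0.0280). It no longer passed without vehicle replicate 2 (0.0647), vehicle replicate 3 (0.0868), vemurafenib replicate 1 (0.0738) or vemurafenib replicate 3 (0.0620), or after centring (0.0713). KAT6A and KAT8 changed by -0.12 and 0.06 without passing. KAT7, which acetylates histones at replication origins, was at -0.20 (limma adjusted p 0.0552); it passed as lower in 6 of 16 alternatives at the same threshold, among them centring (0.0132) and leaving out vehicle replicate 2 (0.0300).

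Among 8 acetyltransferases outside the name rule 5 rose and 1 fell, where 23.2% of all genes were called higher and 22.2% lower. NCOA2 and NCOA1, coactivators of nuclear receptors, rose by 0.75 and 0.59, and CREBBP rose by 0.20, while its relative EP300 did not pass at 0.14 (limma adjusted p 0.118). HAT1, which acetylates newly made histone H4, changed by -0.75. Of 26 partners of acetyltransferase complexes 3 rose and 10 fell (13 of 26 called, near the 45.5% of all genes), with ING4 at 1.13 and JADE1, BRPF1 and ING1 at -0.50, -0.49 and -0.48.

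Of 11 zinc-dependent histone deacetylases 5 rose and 2 fell, or 63.6% called against 45.5% of all genes. All 3 members of classes IIb and IV rose. HDAC11, the class IV enzyme, read 8.49, 8.52 and 8.66 with vemurafenib and 7.83, 7.85 and 7.62 with vehicle, a rise of 0.79 (SE 0.08, limma adjusted p 1.53e-05). HDAC6, which deacetylates tubulin, rose by 0.60 (SE 0.07, limma adjusted p 4.67e-05), and HDAC10, a deacetylase of polyamines, by 0.52 (SE 0.08, limma adjusted p 0.000159). For each of these, all vemurafenib arrays lay above all vehicle arrays, the narrowest gap being 0.36 for HDAC10.

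In class IIa, whose proteins shuttle between nucleus and cytoplasm, HDAC5 (probe set 8015914) had 9.84, 9.71 and 9.89 on vemurafenib arrays and 8.79, 8.85 and 8.79 on vehicle arrays. It rose by 1.00 (SE 0.07, limma adjusted p 8.32e-07), second to KAT2B in size, with a gap of 0.86 between the groups. HDAC4 had 8.21, 8.30 and 8.33 with vemurafenib and 8.59, 8.54 and 8.53 with vehicle and changed by -0.27 (SE 0.07, limma adjusted p 0.00770). HDAC7 and HDAC9 did not pass, at -0.02 and 0.17, though HDAC9 did without vemurafenib replicate 3 (0.0475).

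In class I, the nuclear enzymes of corepressor complexes, HDAC2 read 10.87, 11.02 and 10.86 with vemurafenib and 11.44, 11.32 and 11.41 with vehicle, a change of -0.48 (SE 0.08, limma adjusted p 0.000305). HDAC1, its partner in the same complexes, read 12.24, 12.25 and 12.25 with vemurafenib and 12.26, 12.06 and 12.14 with vehicle, and its interval ran from -0.07 to 0.26. HDAC3 had a change of 0.01 with an interval of -0.14 to 0.16. HDAC8 read 11.45, 11.40 and 11.54 with vemurafenib and 11.08, 11.00 and 11.15 with vehicle and rose by 0.38 (SE 0.07, limma adjusted p 0.00134). Of 24 genes of deacetylase corepressor complexes 6 rose and 9 fell (62.5% called, against 45.5% of all genes). TBL1X, a subunit of the NCOR complexes, changed by -1.56 (limma adjusted p 1.60e-08), GATAD2A of the NuRD complex by -0.74, the NuRD helicase CHD3 by 0.94 and ZMYM2 by 0.51.

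Of 7 sirtuins 4 rose and 0 fell in limma (0 also at an unadjusted p under 0.05). The share called was 57.1%, where 45.5% of all genes were called and 23.2% were higher. SIRT2, a mainly cytoplasmic enzyme, stood at 9.73, 9.67 and 9.73 with vemurafenib and at 9.24, 9.20 and 9.10 with vehicle, a rise of 0.53 (SE 0.07, limma adjusted p 8.51e-05). The mitochondrial sirtuins SIRT3, SIRT4 and SIRT5 rose by 0.28, 0.28 and 0.25, with limma adjusted p values of 0.0139, 0.0140 and 0.0168. SIRT4 was dim in both groups, at 6.74 ± 0.12 with vemurafenib and 6.46 ± 0.05 with vehicle (SD, n = 3 each). SIRT3 did not pass without vehicle replicate 1 (0.0652), SIRT4 without vehicle replicate 3 (0.0554), and SIRT5 without vehicle replicate 1 (0.0663) or after centring (0.0516). The nuclear sirtuins SIRT1 and SIRT6 were at -0.02 and -0.01 with intervals of -0.19 to 0.14 and -0.20 to 0.17, and the nucleolar SIRT7 was at 0.15 (limma adjusted p 0.0980).

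**Figure D3:**
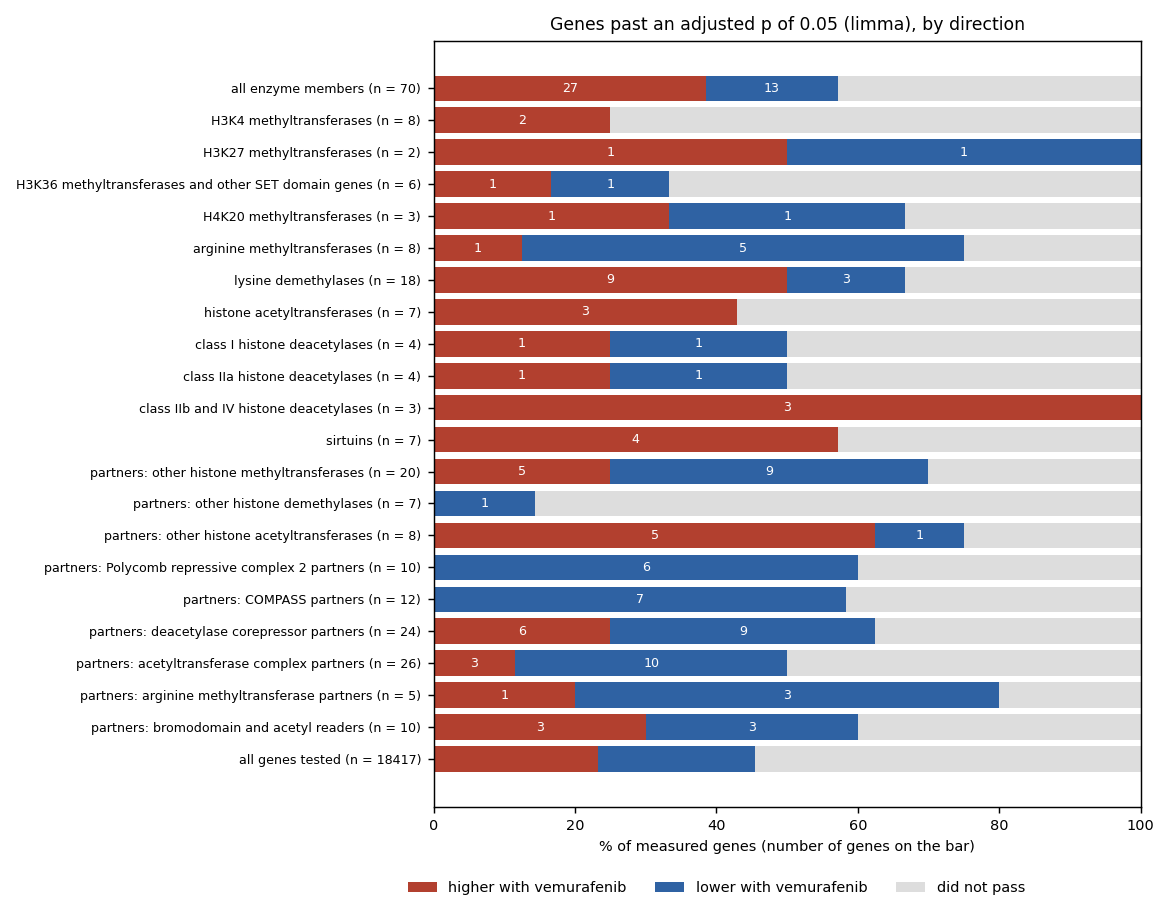
Percentage of measured genes that passed higher (red) or lower (blue) with vemurafenib or did not pass (grey), for the 70 enzyme genes, each role, each list of partners and all 18417 genes tested; numbers of genes stand on the bars. Enzymes show 27 higher and 13 lower calls, and the partner lists together 23 higher and 49 lower.

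Methyltransferases outside the name rule were read from a list of 20 measured genes, of which 5 rose and 9 fell (70.0% called, against 45.5% of all genes). SUV39H2 and SUV39H1, the H3K9 enzymes of constitutive heterochromatin, changed by -1.20 and -1.03 (limma adjusted p 1.46e-06 and 2.32e-06), and SMYD5 by -0.87. SETDB2, another gene of that family, rose by 1.02, and SETDB1 by 0.32. NSD2, which methylates H3K36, and DOT1L, which methylates H3K79, changed by -0.63 and -0.50, and EHMT1 and EHMT2 did not pass at -0.02 and 0.09. Of 10 readers of acetylated histones 3 rose and 3 fell (60.0% called), among them MLLT3 (0.72), BRD8 (0.32), YEATS4 (-0.65) and YEATS2 (-0.33). Across all 122 partner genes 23 rose and 49 fell, with a median change of -0.14. The share called was 59.0%, where 45.5% of all genes were called, 23.2% higher and 22.2% lower.

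Members varied little between replicates, with a median SD of 0.08 on vemurafenib arrays and 0.07 on vehicle arrays, against 0.09 in both groups for all genes. Vehicle replicate 2 was the lowest of the 3 vehicle arrays for 49 of 70 members (70.0%), where it was the lowest for 44.7% of all genes. Without that array 25 members were called higher and 15 lower, and of all 18417 genes 3953 higher and 3779 lower. Among vemurafenib arrays, replicate 2 was lowest for 30 members, replicate 3 for 28 and replicate 1 for 12.

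**Figure D4:**
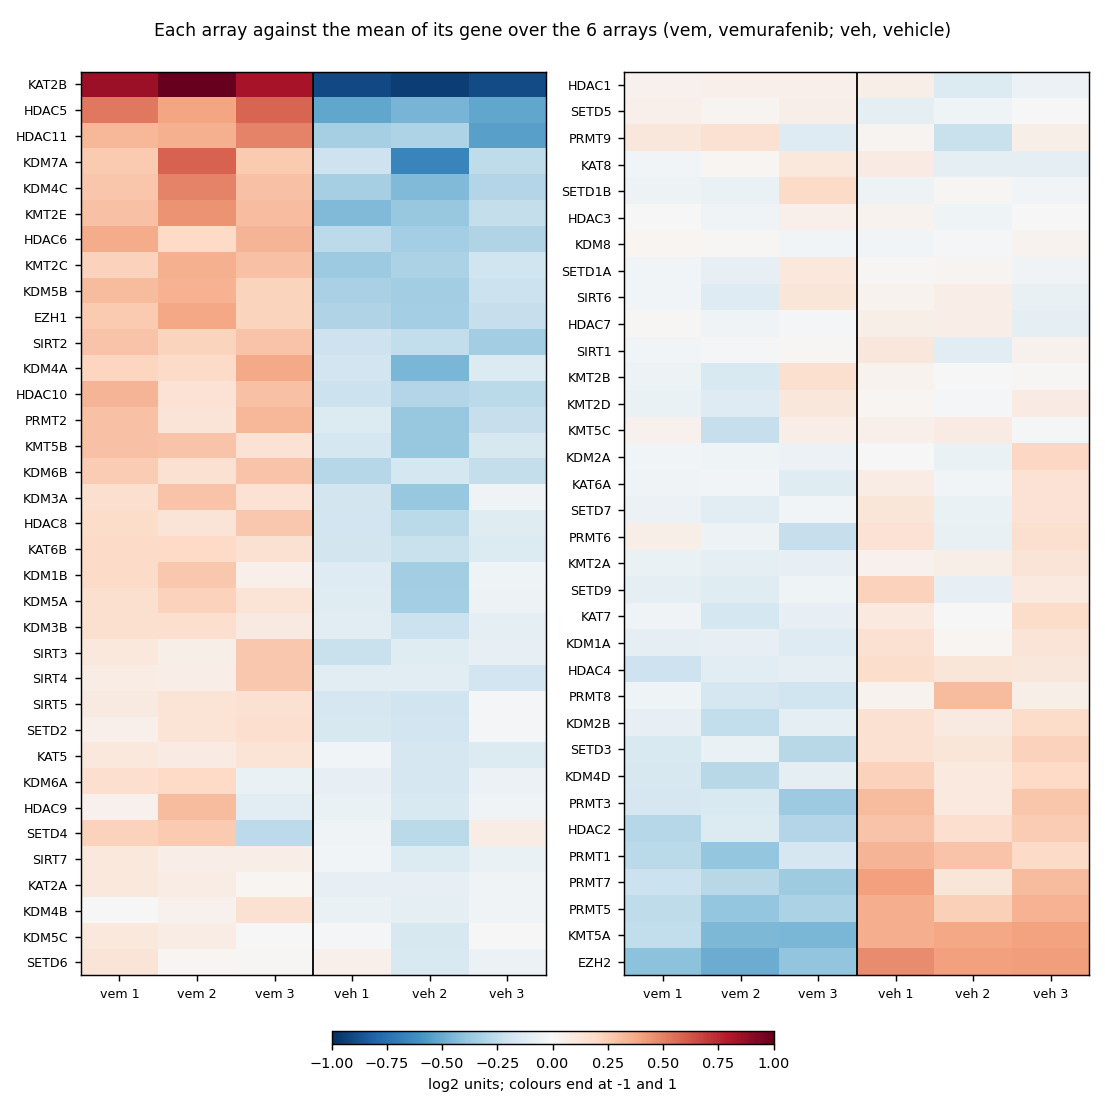
Log2 level of 69 enzyme genes on each array minus the mean of the gene over the 6 arrays, with genes sorted by change down the page and vemurafenib arrays left of vehicle arrays. Colours end at -1 and 1. KAT2B and HDAC5 lead the risers, and EZH2 and KMT5A stand at the lower end. Vehicle replicate 2 was the lowest vehicle array for 49 of 70 members (KDM5D counted but not drawn), against 44.7% of all genes.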

How the data were processed

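RNA of 6 samples of A375 cells was hybridized to single-colour Affymetrix arrays. The deposited values are log2 levels for 33297 probe sets; RMA and Partek are named, without versions or order, per the submitters' processing notes, and no genome build is stated in the sources at hand. RMA as usually run equalizes array distributions, which hides a change of total RNA per cell and compresses large differences. Per the platform annotation, 19460 probe sets carried 1 symbol, 1754 several and 12083 none; 0 columns belonged to other samples.

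For each gene the probe set with the highest mean was kept. limma 3.58.1 in R 4.3.3 (lmFit, eBayes, prior degrees of freedom 7.08) compared the groups over 18417 genes, 2-sided, with a Benjamini-Hochberg adjusted p threshold of 0.05, 95% intervals and no filter; the fit was tested on simulated data. The design text states that samples of 1 stock and day form pairs, but only 1 array's label carries its pair's letter, so arrays were not paired. Members, lists and roles were chosen with earlier results of these data known. All members could be named, partners by the largest changes in each list past the threshold (up to 4) or from a fixed list of core subunits and enzymes. Promoters came from a RefSeq table (GRCh38.p14). Block fits used statmod 1.5.0, tables pandas 2.3.3 under Python 3.11.15, and figures matplotlib 3.10.9.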

Additional observations from a re-analysis of the deposited data

How the results depend on the processing

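Members called higher ranged from 24 to 28 and members called lower from 11 to 15 when each array was left out in turn, and 0 members passed in the opposite direction under any alternative. Of all 18417 genes 3769 to 4130 were called higher and 3380 to 4196 lower when each array was left out. The replicate block, fixed or random, gave 26 or 27 members higher and 12 lower, losing KDM1A and, with the fixed block, KAT5. Over all genes the fixed block gave 3989 higher and 3617 lower. The replicate numbers are not stated to mark the pairs, and deviations of same-numbered arrays correlated at 0.142, -0.184 and -0.251. Vemurafenib replicate 2 correlated best with vehicle replicate 3 (0.225), and vemurafenib replicate 3 with vehicle replicate 2 (0.279). The block fits therefore cannot show what the pairing stated in the design text would give. At a threshold of 0.01, by construction stricter, 32 members stayed called (21 higher, 11 lower). Of all 18417 genes 3374 were higher and 2816 lower at that threshold. Members that passed only under alternatives were KAT7 (6 settings), KDM6A (5), KMT2A (4), SETD7 and SETD9 (3 each), KAT2A and KDM5D (2 each), and SETD4 and HDAC9 (1 each). Counts called within roles changed by over 1.5 times in the following cases, with the cause not tested where no construction is named: H3K4 methyltransferases had 4 called members after centring or with array weights, against 2; histone acetyltransferases had 5 with array weights, against 3; H3K36 methyltransferases and other SET domain genes had 1 at the 0.01 threshold and 1 to 2 with arrays left out, against 2; sirtuins had 1 at the 0.01 threshold, 2 without the dimmest 50% of genes, where fewer were tested, and 2 to 4 with arrays left out, against 4. Changes within 1.5 times put lysine demethylases between 10 and 14 over all alternatives (12), arginine methyltransferases between 5 and 6 (6), classes IIa and IIb with IV between 2 and 3 (2 and 3), and acetyltransferases down to 2. The H3K27, H4K20 and class I groups had 2 in every alternative run.

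Changes near 0 that passed in no setting turned sign. After centring these were HDAC3 (-0.0517), KAT8 (-0.00451), KDM8 (-0.0549) and SETD1B (-0.0108). With array weights HDAC3 and KAT8 were both at -0.0139, and after renewed quantile normalization KDM8 was at -0.0342. With arrays left out in turn, the change ran from -0.0151 to 0.0295 for HDAC3, from -0.0696 to 0.00931 for HDAC7, from -0.00471 to 0.0247 for KDM8, from -0.12 to 0.0358 for KMT2B, from -0.136 to 0.011 for KMT5C, from -0.0548 to 0.0424 for SETD1A, from -0.031 to 0.0968 for SETD1B, from -0.0862 to 0.0231 for SIRT1 and from -0.0836 to 0.0462 for SIRT6. The cause was not tested. Array number limits these values, and signal near background limits PRMT8 and SIRT4.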
